A study of Mus musculus with 9 samples.

Results

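Brain tumour tissue with EZH2 knocked out was compared with glioma cells of the MADM mouse, over all genes on the array. The tissue was measured on 3 arrays and the glioma cells on 2, chosen by their titles, which makes 5 of the 9 arrays of the series. MADM, mosaic analysis with double markers, uses Cre recombination between homologous chromosomes of the mouse to leave sparse, colour-marked mutant cells among normal ones. The labels place both groups on this background and call both a brain tumour. A knocked-out EZH2 is given for the tissue, while no genotype is given for the glioma cells. The labels do not give the Cre driver, the part of Ezh2 that was removed, the age or sex of the mice, or how the glioma cells were kept. The other 4 arrays, 2 of astrocytes and 2 of neural stem cells from normal wild-type C57BL/6J brain, entered the fit for its estimate of spread. Each array took Cy3-labelled total RNA of 1 sample.

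EZH2 is the catalytic subunit of Polycomb repressive complex PRC2, which places the repressive histone mark H3K27me3. Canonical PRC1, a second Polycomb complex, binds that mark through its CBX subunits, and together they keep developmental genes such as the Hox clusters silent. The MADM glioma mouse is known for tumours that start from loss of Trp53 and Nf1 and that resemble oligodendrocyte precursors. Tumour tissue also holds cells that are no part of the tumour lineage, among them microglia, which are the resident macrophages of the brain, vessel cells, astrocytes and neurons. In bulk RNA of this kind, fewer cells of a type and less RNA per cell cannot be told apart.

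The 3 tissue arrays lay on 1 slide and all 6 cell arrays on another, with separate scans and different versions of the scanner software. Tissue against cells, EZH2 knockout against no stated genotype, and slide against slide therefore cannot be told apart. The labels do not say whether the samples of a group came from separate animals or cultures, so a p-value reflects the spread among these samples alone. That spread may be technical in part. Between 60.1% and 65.7% of spots on an array were well above background, and the number of arrays limits the precision. Levels are given as log2 signal minus the 75th percentile of the array. Over the tested genes, the root mean square difference was 0.84 between tissue arrays (3 pairs), 1.01 between the 2 glioma cell arrays, and 1.74 between tissue and glioma cells (6 pairs). Xist, the transcript that coats the inactive X chromosome, had levels of 0.20, -7.61 and -7.73 in the tissue and 0.29 and 2.15 in the glioma cells. The Y-linked Ddx3y had levels of -7.47, 0.07 and -1.75 in the tissue and -7.46 and -7.25 in the glioma cells. Tissue array 1 and both glioma cell arrays thus had Xist well above background and no Ddx3y signal above it, and tissue arrays 2 and 3 the reverse. The 3 tissue arrays are therefore not repeats of 1 RNA sample. This pattern also differed between the glioma cells and tissue arrays 2 and 3, so it goes in part with the groups. The Y-linked Eif2s3y split as Ddx3y did, and Kdm5d was above background on no array. Uty, also Y-linked, was above background on tissue arrays 2 and 3 but also on glioma cell array 1 (-4.76).

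A gene was tested where its probe was well above background on every tissue array or on both glioma cell arrays, which left 23738 genes. It was called where limma gave a Benjamini-Hochberg adjusted p under 0.05 (5 residual degrees of freedom, two-sided) and a change of at least 2-fold. Of these genes, 4494 (18.9%) were called, 1966 (8.28%) higher in the tissue and 2528 (10.6%) lower. Higher genes thus made up 43.7% of the calls. A gene tested because 1 group alone was above background throughout was in part chosen for a difference, so counts are also given over the 20449 genes above background on all 5 arrays, of which 934 (4.57%) were called higher and 2039 (9.97%) lower. On the authors' values without scaling between arrays, 79.4% of the calls were higher. With each array scaled to its 75th percentile over probes above background on all arrays, 62.4% were. The median difference of all tested genes was -0.22 in the main scaling, 0.37 without scaling, 0.06 under that other percentile, -0.10 after quantile normalization and -0.35 after median scaling, so list medians below are to be read against -0.22. List counts are likewise to be read against the shares of all genes called. All tissue arrays lay above both glioma cell arrays for 20.9% of all genes and below both for 36.4%. The genes that rose included microglial, interferon-stimulated, complement, chemokine, neuronal, astrocytic and vessel genes. The genes that fell included protease inhibitors of the stefin family, some Hox and other developmental regulators, a few Polycomb subunits and cholesterol synthesis genes. For PRC2 genes, the share called lower (2 of 13) lay near the 10.6% of all genes. None of the 8 Hox genes above background on all 5 arrays was called.

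**Figure D1:**
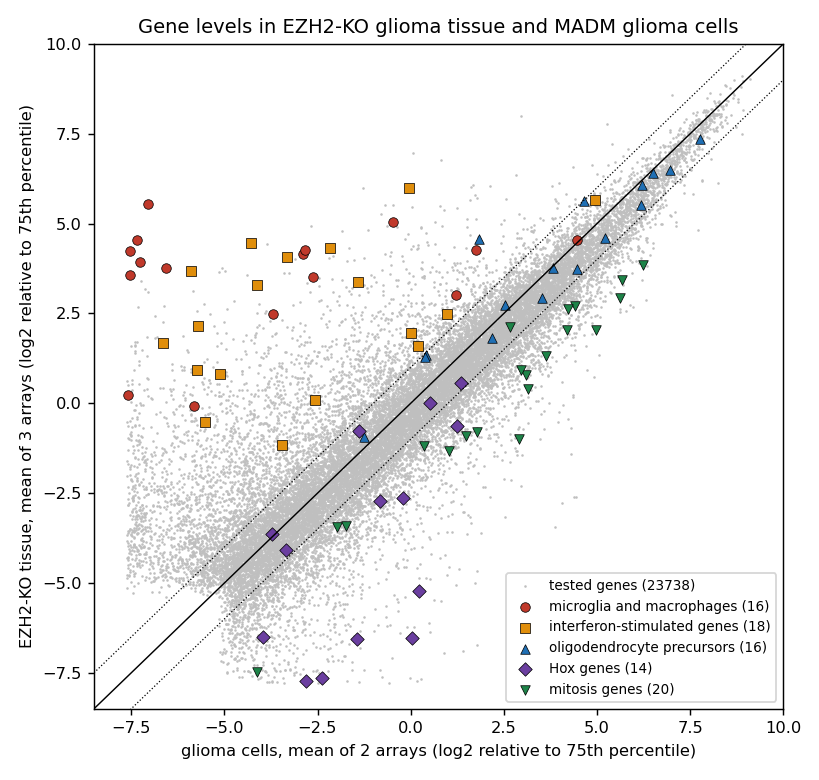
Each point is 1 of 23738 tested genes, with its mean log2 level (signal minus the 75th percentile of the array) in 2 glioma cell arrays on the x axis and in 3 tissue arrays on the y axis. The solid line marks equality and the dotted lines 2-fold. The 16 microglial and 18 interferon-stimulated genes lie mostly far above the diagonal, the 16 oligodendrocyte precursor genes along it, and the 14 Hox and 20 mitosis genes mostly below it.

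Which single array was left out changed the number of calls. The background filter was applied anew to the arrays that remained. Without glioma cell array 1 the count fell to 2173 (1065 higher and 1108 lower), and without glioma cell array 2 to 2800. It was 3131, 3054 and 3399 without tissue arrays 1, 2 and 3, and 4156 without either astrocyte array. Without either neural stem cell array it was 4966. A filter that kept only probes above background on all 5 arrays, and took each gene's brightest probe anew from these, left 20503 genes and 2860 calls, of which 31.2% were higher. That set differs from the 20449 genes given above, which kept the probe and the p-values of the main setting.

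**Figure D2:**
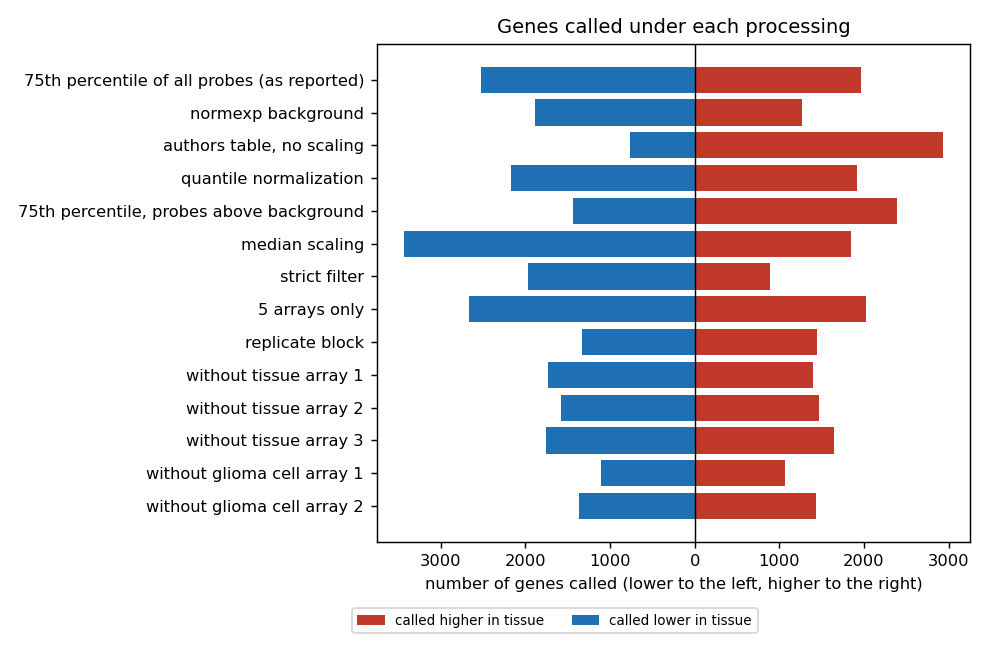
Bars give the number of genes called higher and lower in the tissue under 14 settings of the scaling, filter, model or arrays used, with lower genes to the left of 0 and higher genes to the right. The main setting gave 1966 higher and 2528 lower genes, the unscaled values 2940 and 762, and median scaling 1852 and 3440.

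Ezh2 was lower in the tissue, though well above background on all 3 tissue arrays. Its levels were 1.71, 1.40 and 1.30 in the tissue and 2.87 and 3.08 in the glioma cells, with no overlap. The difference was -1.50 (SE 0.41), 2.83-fold lower, at an adjusted p of 0.0404 by limma. This call ended with any 1 of the 5 arrays left out (adjusted p up to 0.162). It also ended on unscaled values (-0.92, adjusted p 0.116), after quantile normalization (-1.26, 0.0649) and under the percentile of detected probes (-1.23, 0.0716). The array has 1 Ezh2 probe, at chr6:47480307-47480366 (mm9, minus strand). As the labels do not say which part of Ezh2 was removed, the probe checks nothing about the knockout. Nf1, a brake on RAS signalling, had levels of 0.21, 0.03 and -0.10 in the tissue and 1.22 and 1.07 in the glioma cells. It was lower by limma (-1.10, SE 0.26, adjusted p 0.0250), and that call ended without tissue arrays 2 or 3 or either glioma cell array (adjusted p up to 0.135). It also ended on unscaled values (-0.52, adjusted p 0.314) and under the percentile of detected probes (-0.82, 0.0586), and the change was under 2-fold with a normexp background (-0.92) and, by little, after quantile normalization. Trp53, the p53 tumour suppressor, had levels of -1.73, -2.13 and -1.36 against -1.29 and -1.96. The groups overlapped, and the difference of -0.11 (SE 0.42) had an adjusted p of 0.867. Pdgfra, the growth factor receptor of oligodendrocyte precursors, had levels of 5.88, 4.92 and 6.10 against 4.43 and 4.85. Its difference of 0.99 (SE 0.62) had an adjusted p of 0.284.

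The largest rises joined interferon-stimulated, myeloid and neuronal genes. Oas1a, an enzyme that senses double-stranded RNA, had levels of 3.34, 4.85 and 2.81 in the tissue and -4.62 and -7.17 in the glioma cells, where 1 of 2 arrays was above background. The difference was 9.57 (SE 0.97, adjusted p 0.00107), and 8.76 with the low value raised to the lowest signal well above background on its array. Oasl2, of the same family, had levels of 4.10, 5.29 and 3.98 against -3.77 and -4.80 (8.75, SE 0.98, adjusted p 0.00156). Tissue array 2 was the highest for both. Slc32a1, the vesicular transporter of GABA and glycine, had levels of 5.02, 2.94 and 3.38 against -7.57 and -2.55 (8.84, SE 1.32, adjusted p 0.00475, and 7.78 with the low value raised), and a second probe of it gave a difference of 1.52. Ly6c1, a surface protein of endothelial and myeloid cells, had levels of 4.12, 4.18 and 2.70 against -5.97 and -4.31 (8.80, SE 0.81, and 8.54 with the low value raised). Mpeg1, a pore-forming protein of macrophages, had levels of 3.02, 4.93 and 3.08 against -4.95 and -5.0 (8.66, SE 0.93). For these 5 genes all tissue arrays lay above both glioma cell arrays. The neuropeptide gene Cck rose by 8.30 (SE 1.01), Zcchc12 by 8.30 (SE 1.31) and Stmn2, a microtubule regulator of neurons, by 8.28 (SE 1.14). With low values raised, the differences of Zcchc12 and Stmn2 were 7.14 and 7.33. Slc32a1, Ly6c1, Mpeg1, Zcchc12 and Stmn2 were, like Oas1a, above background on 1 of 2 glioma cell arrays, so these sizes rest in part on a value below background. None of these 8 calls ended when 1 array was left out.

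Some genes were above background on no glioma cell array, and their folds are bounds against the lowest signal well above background on those arrays. The 5 largest bounds were all myeloid genes. Ctss, the lysosomal protease cathepsin S, had levels of 5.24, 6.40 and 4.99 in the tissue and was at least 2107-fold higher (adjusted p 0.000203). The complement genes C1qc (4.41, 5.28 and 3.96 in the tissue) and C1qa (3.85, 5.25 and 3.65) were at least 1058-fold and at least 859-fold higher. Trem2, a lipid receptor of microglia, had levels of 3.60, 5.0 and 3.22 and was at least 693-fold higher. Cd52, a surface glycopeptide of leukocytes, had levels of 4.05, 4.03 and 3.40 and was at least 641-fold higher. Tissue array 2 was the highest of the 3 for each of the first 4.

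The largest falls were led by genes of the stefin family. Csta2, a stefin, which is an intracellular inhibitor of cysteine proteases, had levels of -2.71, -2.12 and -5.53 in the tissue and 4.28 and 3.48 in the glioma cells. It was 161-fold lower (-7.33, SE 0.90, adjusted p 0.00226). Cstdc5, with 2.17 and 1.37 in the glioma cells and no tissue array above background, was at least 238-fold lower. Stfa2l1 (0.64 and -0.09) was at least 84.5-fold lower and Cstdc4 (0.25 and -0.31) at least 68.5-fold lower. None of these 4 calls ended when 1 array was left out. Mouse stefin genes are near-identical neighbours, so a probe may bind transcripts of several of them. Further falls were in regulators of development or of vesicle release. Syt10, a synaptotagmin, had levels of -3.11, -4.35 and -0.88 against 4.09 and 4.02 (-6.83, SE 1.71, adjusted p 0.0304), a call that ended without tissue arrays 1 or 2 or either glioma cell array (adjusted p up to 0.123). Isl2, a homeobox gene of motor neurons, had levels of -7.47, -3.22 and -7.63 against 0.53 and 0.46 (-6.60, SE 1.25, and -5.80 with low values raised), with 1 of 3 tissue arrays above background. Gsc, a homeobox gene of the early embryo, had levels of -6.51, -4.90 and -7.77 against -0.10 and -0.49 (-6.09, SE 1.14, and -5.57 with low values raised), again with 1 tissue array above background. The Isl2 call ended without either glioma cell array (adjusted p up to 0.0606) and the Gsc call without glioma cell array 1 (0.0624). Foxd1, a forkhead factor, was at least 59.3-fold lower, with -0.14 and 0.32 in the glioma cells (adjusted p 0.0355), and its call ended with any 1 of the 5 arrays left out (up to 0.133). Gtse1, a microtubule-binding regulator of p53, had levels of -4.75, -4.30 and -5.49 against 0.72 and 0.08 (-5.25, SE 1.23), and its call also ended with any 1 of the 5 left out (up to 0.119). Slxl1, a gene known from sperm development, fell by 5.46 (SE 1.45), or by 4.49 with low values raised, with 1 of 3 tissue arrays above background. That call ended without tissue arrays 2 or 3, either glioma cell array or either astrocyte array (adjusted p up to 0.185).

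Genes of microglia and macrophages were higher in the tissue almost throughout the list. Of 16 markers, 14 were called higher and none lower, beside 8.28% of all genes called higher, and the count was 14 whichever of the 9 arrays was left out. Of the 8 markers above background on all 5 arrays 6 were called higher. The median difference was 7.08, or 6.61 with values below the lowest signal above background raised to it. For 15 of 16 markers all tissue arrays lay above both glioma cell arrays, which held for 20.9% of all genes. Beside Ctss, C1qa, C1qc and Trem2, the fractalkine receptor Cx3cr1 (3.43, 4.37 and 3.53 in the tissue) was at least 618-fold higher and Aif1 (3.58, 4.02 and 3.11), known as IBA1, at least 537-fold. Tmem119, a marker of resident microglia, had levels of 2.46, 2.97 and 2.02 against -3.44 and -3.95. Csf1r, the receptor that microglia need to survive, had levels of 4.95, 5.55 and 4.67 against -0.66 and -0.30, while another of its 3 probes gave a difference of -0.70. The integrin Itgam had levels of 4.69, 4.38 and 4.53 against 4.81 and 4.12 and was not called (0.07, adjusted p 0.892), nor was the lysosomal protein Cd68 (1.79, adjusted p 0.0593). The mean level of the list was 3.34, 4.25 and 3.11 in the tissue and -4.03 and -3.70 in the glioma cells. It was 3.18 and 3.61 on the arrays of the astrocytes, so this list was as high there as in the tissue.

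**Figure D3:**
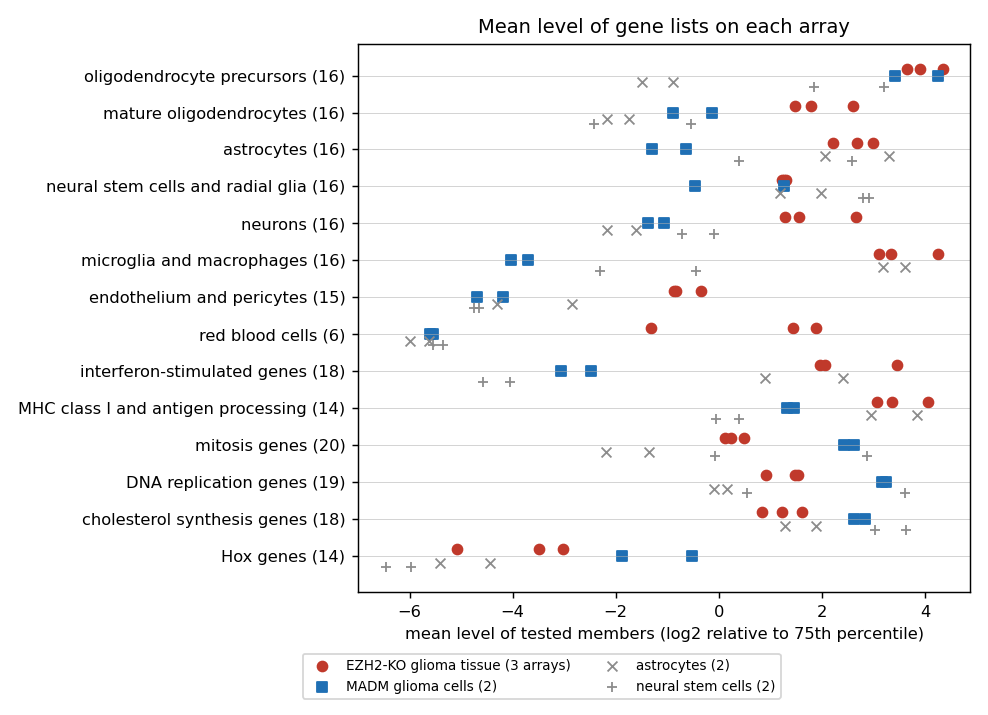
Each point is the mean log2 level (signal minus the 75th percentile of the array) of 1 gene list on 1 array, for 14 lists and the 4 groups of the series. The 3 tissue arrays (3.34, 4.25 and 3.11) and the 2 astrocyte arrays (3.18 and 3.61) lie far above the glioma cell arrays for microglial genes, and the mitosis list is higher on the glioma cell arrays (2.43 and 2.63) than on the tissue arrays (0.23, 0.49 and 0.12).

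Markers of other blood-derived cells were called in both directions. Of 14 markers of monocytes and neutrophils 7 were tested, with a median of 2.11. Of these 2 were called higher and 2 lower, beside 8.28% and 10.6% of all genes. Cd14, a receptor for bacterial lipid, was at least 25.5-fold higher (-0.97, -0.15 and -1.18 in the tissue). Lyz2, a lysozyme of myeloid cells, had levels of -1.43, -0.27 and -1.82 against -6.13 and -4.66 (4.22, SE 0.65, adjusted p 0.00540). The chitinase-like gene Chil3 was lower in the tissue (-5.16, -2.07 and -2.24 against 3.71 and 1.37, adjusted p 0.0146), a call that ended without glioma cell array 1 (0.0931). Csf3r, the receptor for the neutrophil growth factor G-CSF, was also lower (-1.26, SE 0.25), a call that ended without either glioma cell array (adjusted p up to 0.0800) and on unscaled values. Of 14 lymphocyte markers 7 were tested, and their median was -0.04, or 0.54 without scaling. Cd3e, a subunit of the T cell receptor complex, was called higher by 1.02 (adjusted p 0.0483), while Nkg7, known from natural killer cells, was called lower (-1.10). Both calls ended without some of the arrays, with adjusted p up to 0.241 and 0.121. For Cd3e, leaving out any 1 of the 9 arrays ended the call.

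Interferon-stimulated genes, the antiviral programme that interferons switch on through STAT and IRF factors, were the second block of large rises. Of 18 tested, 13 were called higher and none lower, beside 8.28% of all genes called higher. The median was 5.97 (5.75 with low values raised). For 16 all tissue arrays lay above both glioma cell arrays, which held for 20.9% of all genes. Of the 11 above background on all 5 arrays 6 were called higher, beside 4.57% of all such genes. The count of 13 ran from 11 to 14 when 1 array was left out. Upstream of the transcription start, promoters of such genes are known for the interferon-stimulated response element, whose core can be written GAAANNGAAA. Promoters of 3 genes described here are shown with that core in capitals, on either strand. They are the last 120 bases before the start in RefSeq (GRCm38.p6), at chr4:156200819-156200938 (minus strand), chr5:120907526-120907645 (minus strand) and chr19:34640769-34640888 (plus strand).
Isg15: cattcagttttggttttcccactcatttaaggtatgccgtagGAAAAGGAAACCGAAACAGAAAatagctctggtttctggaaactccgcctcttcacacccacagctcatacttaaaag
Oas1a: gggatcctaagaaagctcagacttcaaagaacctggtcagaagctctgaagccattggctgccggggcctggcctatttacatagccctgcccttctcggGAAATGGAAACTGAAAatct
Ifit1: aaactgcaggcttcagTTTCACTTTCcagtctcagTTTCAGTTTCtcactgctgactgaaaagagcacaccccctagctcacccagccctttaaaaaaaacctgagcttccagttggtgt
The stretches hold 3, 2 and 2 matches, which overlap in Isg15 and Oas1a. Searched on both strands in windows from 250 bases before to 50 after the start, the letters occurred in 7 of 13 windows of interferon-stimulated genes (53.8%), in 6.50% of genes called higher, 1.81% of genes called lower and 3.49% of all 27025 windows. A match is a description of the sequence, not a measured binding site or a cause.

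Isg15 itself, a ubiquitin-like protein, had levels of 5.61, 6.77 and 5.57 in the tissue and 0.04 and -0.12 in the glioma cells (6.02, SE 0.64, adjusted p 0.00128). Ifit1, which binds foreign RNA, had levels of 1.38, 2.22 and 1.46 and was at least 146-fold higher (adjusted p 0.000269). Irf7, a transcription factor of the response, had levels of 0.65, 5.98 and -0.14 and was at least 203-fold higher, or at least 54.0-fold without tissue array 2. Its call ended without either glioma cell array (adjusted p up to 0.0775). All 3 genes were highest on tissue array 2, and no tissue level overlapped a glioma cell level. Stat2, which carries the interferon signal, was not called (1.52, adjusted p 0.0503). Ifit2 (2.67), Rsad2 (1.95) and Ifi27 (0.69) were not called either. In the astrocytes the list had mean levels of 2.40 and 0.89, and in the neural stem cells -4.04 and -4.58.

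Antigen presentation genes of MHC class I show peptides from inside the cell to T cells. They were called higher in the tissue for 7 of 14 tested and lower for none, beside 8.28% of all genes called higher. Their median was 1.79. H2-D1, a classical class I heavy chain, had levels of 5.87, 6.90 and 5.38 against 2.17 and 2.10 (3.92, SE 0.47, adjusted p 0.00211). H2-T23, a non-classical heavy chain, had levels of 4.97, 6.35 and 4.86 against 0.73 and 1.06 (4.49, SE 0.50, adjusted p 0.00158). Class I heavy chains are similar in sequence, so their probes may share transcripts. Nlrc5, the transactivator of class I genes, rose by 5.24 (SE 0.64), and its other probe gave -0.12. The chaperone Calr (-0.94) was not called. Of 9 tested class II genes 4 were called higher, none of them among the 4 that were above background on all 5 arrays. H2-Oa, which modulates class II peptide loading, had levels of -0.79, -0.58 and -1.19 and was at least 25-fold higher (adjusted p 9.6e-05). H2-DMb1 (5.28), H2-Aa (3.28) and H2-Ob (at least 3.40-fold) were called too, and each of these 3 calls ended without several of the arrays (adjusted p up to 0.0946, 0.190 and 0.186). Without glioma cell arrays 1 or 2, or tissue array 2, 1 of the class II genes was called. The classical chains H2-Ab1 (1.21) and H2-Eb1 (2.53) and the invariant chain Cd74 (1.86, adjusted p 0.0502) were not called.

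Complement genes, the plasma cascade that tags cells for removal, were called higher for 11 of 16 and lower for none, beside 8.28% of all genes called higher. Their median was 3.35. Of the 8 above background on all 5 arrays 5 were called. The count of 11 was 7 without tissue arrays 1 or 2 and 6 without glioma cell array 1. The C1q subunits led the list and are also counted among the microglial genes. The central component C3 (0.92) was not called. Chemokines and their receptors, which steer leukocytes, were called higher for 11 of 17 and lower for none, with a median of 4.91 (3.86 with low values raised), and 3 of the 8 above background on all 5 arrays were called. Ccl12 (2.42, 1.64 and 1.40 in the tissue) was at least 160-fold higher and Ccl4 (1.18, 0.04 and 0.42) at least 65.9-fold. The chemokine of the interferon response Cxcl10 rose by 6.64 and Ccl5 by 6.25. Ccl2 (1.44), Cxcl12 (0.91) and its receptor Cxcr4 (-1.14) were not called. The count of 11 rose to 12 without glioma cell array 1 and did not move without any other single array.

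None of 16 markers of oligodendrocyte precursors, the cells that the MADM glioma is known to resemble, was called in either direction, while 18.9% of all genes were. Their median was -0.10, with a range of -0.73 to 2.74. Under the scalings tried the median ran from -0.24 to 0.48, and 0.11 to 0.17 above that of all genes. The mean level of the list was 3.90, 3.64 and 4.34 in the tissue and 4.25 and 3.42 in the glioma cells, so the groups overlapped. In the astrocytes it was -0.89 and -1.49, and in the neural stem cells 3.19 and 1.84. A high level of this list was thus not particular to the glioma groups. Olig2, the lineage factor, had levels of 3.98, 2.98 and 4.26 against 4.20 and 4.74 (-0.73, SE 0.42, adjusted p 0.245). Sox10, a second lineage factor, had levels of 5.31, 5.60 and 5.68 against 6.39 and 5.97 (-0.65, SE 0.69). Gpr17, of committed precursors, had levels of 6.13, 6.88 and 6.25 against 7.81 and 5.21. Matn4, a matrix protein, had levels of 4.86, 3.99 and 4.87 against 5.08 and -1.42, so its difference of 2.74 (SE 1.64, adjusted p 0.262) rested on glioma cell array 2. With 5 arrays, a change that was not called is not shown to be absent.

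Genes of myelinating oligodendrocytes, the mature stage, were called higher for 4 of 16 and lower for none, beside 8.28% of all genes called higher. Their median was 2.56, and 7 were called on unscaled values. None of the 12 above background on all 5 arrays was called in the main setting. Mobp, a structural protein of myelin, had levels of 2.03, 3.16 and 0.43 and was at least 166-fold higher. Aspa, an enzyme of acetylaspartate breakdown, was at least 19.2-fold higher and Hapln2, a link protein of the nodes of Ranvier, at least 15.4-fold. The membrane protein gene Opalin was at least 4.67-fold higher, a call that ended without tissue arrays 1 or 2 or glioma cell array 1 (adjusted p up to 0.181). Mbp, a major myelin gene whose brightest probe gave -0.14 and whose 3 probes ran to 4.14, was not called. The brightest probe of Ermn gave -1.79 and its other probe 2.11.

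Astrocyte markers were called higher for 9 of 16 and lower for none, beside 8.28% of all genes called higher. Their median was 4.60, and 5 of the 11 above background on all 5 arrays were called. The count of 9 fell to 4 without glioma cell array 1 and was 7 or more without any other single array. The gap junction gene Gjb6 had levels of 1.13, 1.61 and -0.85 and was at least 69.9-fold higher. Aldh1l1, a folate enzyme that marks astrocytes, had levels of 2.93, 3.55 and 1.73 against -3.36 and -2.96 (5.90, SE 0.77, adjusted p 0.00272). Gfap, the astrocyte filament protein, had levels of 2.86, 3.39 and 1.34 against -3.38 and -3.87 (6.16, SE 1.21, adjusted p 0.0132), a call that ended without either glioma cell array (up to 0.0637). Tissue array 3 was the lowest for each of these 3. S100b (-1.23), Aldoc (-0.39) and the glutamate transporter Slc1a3 (0.88) were not called. Genes of neural stem cells and radial glia were called higher for 2 of 16, with a median of 0.33, beside the same 8.28% of all genes. The 2 were Prom1 (5.22, adjusted p 0.0309) and Pax6 (2.85, adjusted p 0.0314). Each of these 2 was above background on 1 of 2 glioma cell arrays, and none of the 13 genes above background on all 5 arrays was called. Both calls ended without tissue arrays 1 or 2 or glioma cell array 1 (adjusted p up to 0.0954 and 0.128), and the Pax6 call also without tissue array 3. The stem cell factor Sox2 had levels of 1.37, 1.91 and 1.82 in the tissue, and of -7.71 and 2.12 in the glioma cells, whose arrays thus lay far apart (4.49, adjusted p 0.202).

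Neuronal genes followed, with their highest mean level on tissue array 1. Of 16 neuronal markers 9 were called higher and none lower, beside 8.28% of all genes called higher. Their median was 3.15, and 6 of the 13 above background on all 5 arrays were called. The count of 9 was 4 without tissue array 1, 5 without glioma cell array 1 and 6 without tissue array 3, and 12 on unscaled values. Gad2, a GABA-making enzyme, had levels of 2.33, 0.72 and 1.11 against -4.47 and -4.37 (5.80, SE 0.50, adjusted p 0.000657). Slc17a7, a vesicular glutamate transporter, had levels of 0.91, -0.39 and -1.49 against -5.12 and -7.15 (5.81, SE 0.96, adjusted p 0.00718). Map2 (-0.46) and Snap25 (0.50), genes of dendrites and of vesicle release, were not called. Of 24 synaptic vesicle and receptor genes 14 were called higher and none lower, with a median of 2.03, and 8 of the 17 above background on all 5 arrays were called. The count of 14 was 7 without glioma cell array 1.

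Of 15 neuropeptide and granin genes 8 were called higher and none lower, beside 8.28% of all genes called higher. The median was 5.28 (4.25 with low values raised), and the count of 8 was 4 without glioma cell array 1. Of the 6 above background on all 5 arrays 2 were called. Scg2, a granin of secretory granules, had levels of 4.0, 2.25 and 3.15 and was at least 387-fold higher. Sst, the peptide of a class of interneurons, had levels of 4.17, 1.51 and 1.12 and was at least 217-fold higher. Tissue array 1 was the highest for both and for Cck (6.13, 4.36 and 2.83). Npy (5.28) and Penk (5.51) were not called (adjusted p 0.112 and 0.0905). The median of 18 potassium channel subunits was 2.32, and 10 were called higher on unscaled values. In the main setting 4 were called higher and none lower, beside the same 8.28% of all genes. These were Kcnn2 (4.07), Kcnab1 (3.43), Kcnj9 (2.61) and Kcnj3 (at least 3.78-fold). The calls ended without some single arrays (adjusted p up to 0.184, 0.0917, 0.127 and 0.113). The list had 2 calls without tissue arrays 1 or 2 or glioma cell array 1, and 7 without either neural stem cell array.

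Genes of endothelium and pericytes, which build the vessel wall, were called higher for 10 of 15 and lower for none, beside 8.28% of all genes called higher. Their median was 3.69 (2.97 with low values raised), and 3 of the 7 above background on all 5 arrays were called. The count of 10 was 6 without any 1 tissue array or glioma cell array 2, and 7 without glioma cell array 1. Cldn5, the tight junction protein of the blood-brain barrier, had levels of 2.92, 3.13 and 2.05 and was at least 294-fold higher (adjusted p 0.000265). Rgs5, a pericyte gene, had levels of -0.30, -0.14 and -0.14 and was at least 39.5-fold higher (adjusted p 5.54e-05). Pdgfrb, the receptor that recruits pericytes, was at least 18.4-fold higher, a call that ended with any 1 of the 5 arrays or either astrocyte array left out (adjusted p up to 0.139). Pecam1 (-0.03) was not called, nor was the brightest probe of the VEGF receptor Kdr (-0.71), whose other probe gave 4.71. Of 6 tested red blood cell genes the 5 globin genes were called higher, with a median of 7.34 (6.07 with low values raised), beside 8.28% of all genes called higher. Of the 6, 4 were above background throughout in the tissue alone, and 1 of the 2 above background on all 5 arrays was called. Hba-a2, an alpha globin, had levels of 6.35, 2.71 and 5.77 against -2.85 and -2.49 (7.61, SE 1.01, adjusted p 0.00301), and Hbb-bt, a beta globin, was at least 103-fold higher. Globin genes have near-identical copies, so their probes may share transcripts. Tissue array 2 was the lowest for both.

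The median of 10 tested genes of fibroblasts, meninges and smooth muscle was 2.23, and all 10 differences were positive. Of these genes 2 were called higher, beside 8.28% of all genes. These were the smooth muscle genes Acta2 (4.22, adjusted p 0.0288) and Myh11 (at least 1.89-fold), and the Acta2 call ended without tissue arrays 1 or 2 or either glioma cell array (up to 0.158). The fibrillar collagen Col1a1 (0.77) was not called, nor were Col1a2 (4.66), Dcn (3.63) and Col3a1 (2.39). Of 9 tested genes of ependyma and choroid plexus 3 were called higher and 1 lower, beside 8.28% and 10.6% of all genes. The chloride channel gene Clic6 had tissue levels of -1.50, 0.50 and -1.71 (4.96, adjusted p 0.0288, up to 0.151 with any 1 tissue array or glioma cell array 1 left out), and Kl, or klotho, levels of -4.19, -1.54 and -3.68 (at least 5.13-fold, 0.0521 without glioma cell array 1). Rarres2 rose by 4.35 (SE 0.68). Otx2 was called lower by its brightest probe (-1.33, adjusted p 0.0308), while its other probe gave 4.32. That call ended with any 1 of the 5 arrays left out (up to 0.138) and turned to 1.35 and 1.49, neither called, with a normexp background or the mean of the probes.

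**Figure D4:**
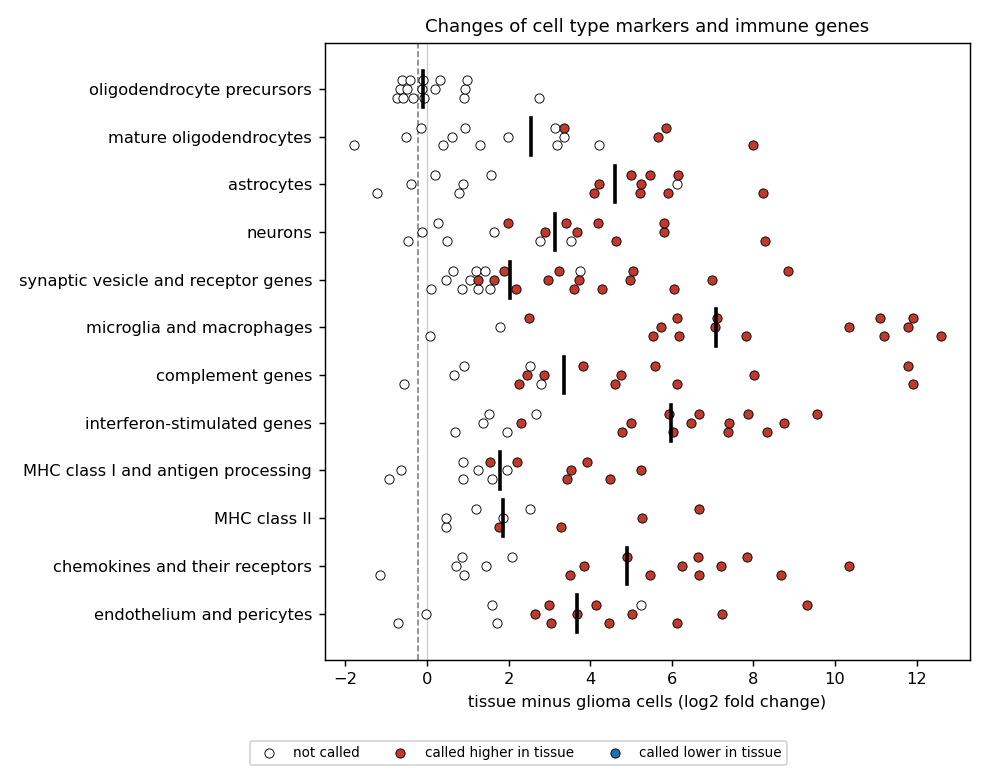
Points are the differences, tissue minus glioma cells on the log2 scale, of the tested members of cell type, synaptic and immune gene lists, filled where called by limma. Black bars are list medians, the dashed line the median of all tested genes (-0.22). Of the lists drawn, microglia (7.08) and interferon-stimulated genes (5.97) have the highest medians, while no member of the oligodendrocyte precursor list is filled.

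Among Polycomb subunits, 6 were called lower in the tissue and none higher. Of 13 PRC2 genes 2, Ezh2 and Epop, were called lower and none higher, beside 10.6% of all genes called lower. For 6 of 13 all tissue arrays lay below both glioma cell arrays, beside 36.4% of all genes. The median was -0.47, which became 0.11 on unscaled values and lay 0.22 to 0.30 below the median of all genes under every scaling tried. Epop, an accessory subunit that links PRC2 to transcription elongation, had levels of 1.42, 1.04 and 0.97 in the tissue and 3.47 and 3.42 in the glioma cells, with no overlap. It was lower by 4.92-fold (-2.30, SE 0.36, adjusted p 0.00584), and no single array ended the call. The core subunits Eed (2.35, 1.85 and 1.96 against 3.51 and 2.93, adjusted p 0.0521) and Suz12 (-1.01, adjusted p 0.0676) were not called. Ezh1, the paralogue of Ezh2, had a difference of 0.43 (adjusted p 0.516). With any 1 of the 5 arrays left out, Epop was the 1 call of the list.

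Of 19 PRC1 genes 4 were called lower and none higher, beside 10.6% of all genes called lower. The list median was -0.54, which became 0.04 on unscaled values. For 12 of 19 all tissue arrays lay below both glioma cell arrays, beside 36.4% of all genes. Cbx8, a chromobox reader of H3K27me3, had levels of -3.50, -4.09 and -2.73 against -0.33 and -0.23 (-3.16, SE 0.39, adjusted p 0.00223), and no single array ended that call. Cbx2, a second reader, had levels of -0.37, -1.33 and -1.01 against 1.51 and 1.36 (-2.34, SE 0.42, adjusted p 0.00943, and 0.0570 without glioma cell array 1). Ring1, a ubiquitin ligase of the complex, fell by 1.61 (adjusted p 0.0272) and the scaffold gene Phc2 by 1.19. Those 2 calls ended without some of the 5 arrays (adjusted p up to 0.120 and 0.117). The catalytic subunit Rnf2 (-0.75) and Bmi1 (-0.44) were not called. Of 6 demethylases of H3K27 and MLL-type methyltransferases 1 was called, with a median of -0.23 that was 0.35 on unscaled values and 0.05 under the percentile of detected probes. Kmt2b had levels of 2.92, 4.12 and 4.95 against 5.67 and 6.12 (-1.90, adjusted p 0.0438). Leaving out any 1 array other than tissue array 3 ended that call (up to 0.182). The demethylases Kdm6a (0.06) and Kdm6b (-0.84) were not called.

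Hox genes give cells their position along the body axis and are a classic target of PRC2. Of 39 Hox genes 14 were tested and the other 25 were above background on no full group. Of the 14, 6 were called lower and none higher, beside 10.6% of all genes called lower. The median was -2.16 (-1.87 with low values raised). All 6 calls were of genes above background in the glioma cells and on none or some of the tissue arrays, which were tested for that reason, and none of the 8 above background on all 5 arrays was called. Hoxd8 had levels of -7.15, -3.95 and -4.57 against -1.14 and 1.57 (-5.44, SE 1.18, adjusted p 0.0190, and 0.101 without glioma cell array 2). Hoxd4, with -2.05 and 2.15 in the glioma cells, was at least 66.9-fold lower (0.0762 without glioma cell array 2), and Hoxc4, with 0.13 and -4.88, at least 13.5-fold (up to 0.0695). Hoxd13, with -2.98 and -2.62, was at least 10.1-fold lower, with no tissue array above background. Its adjusted p of 0.000132 by limma sets signal against values below background. No single array ended that call. Hoxd9 (at least 23.5-fold) and Hoxb3 (at least 3.49-fold) lost their calls without some of the 5 arrays (up to 0.0831 and 0.174). The count of 6 was 2 without glioma cell array 2 and 3 without tissue array 1. The Hoxa3, Hoxa5 and Hoxa7 genes of the Hoxa cluster were not called and varied within the tissue. Hoxa3 had levels of -3.43, 0.19 and 1.36 against 1.12 and 1.34, Hoxa5 of -5.15, -2.21 and -0.55 against -0.64 and 0.22, and Hoxa7 of -2.10, 1.28 and 2.48 against -1.25 and 3.98. Tissue array 1 was the lowest and tissue array 3 the highest of the tissue arrays for all 3.

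Of 38 other developmental genes known as Polycomb targets 21 were tested, with a median of -1.49. Of these 7 were called lower and none higher, beside 10.6% of all genes called lower. Of the 12 above background on all 5 arrays 3 were called lower, beside 9.97% of all such genes. Barx1, a homeobox gene of the face and stomach, had levels of -1.02 and -2.12 in the glioma cells and was at least 23.5-fold lower (adjusted p 0.000540). En2, a midbrain and hindbrain regulator, had levels of -0.73, -0.73 and -1.20 against 1.92 and 2.31 (-3.00, adjusted p 0.00322). No single array ended these 2 calls. The forkhead genes Foxa1 (1.63 and -2.80 in the glioma cells) and Foxa2 (-0.84 and -2.85) were at least 46.6-fold and at least 19.5-fold lower. The Foxa1 call ended without glioma cell array 1 (0.0551) and the Foxa2 call without tissue arrays 1 or 3 or glioma cell array 1 (up to 0.142). Six2 had levels of -3.66, 1.91 and -5.16 against 2.67 and 3.28 and was not called (-5.27, adjusted p 0.120), as tissue array 2 lay close to the glioma cells. Over the same 21 genes, the count of 7 was 2 without glioma cell array 1, 3 without tissue array 3, 4 without tissue array 1 and 8 without tissue array 2 or either astrocyte array. Without glioma cell array 2, 5 were called lower and 1 higher.

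**Figure D5:**
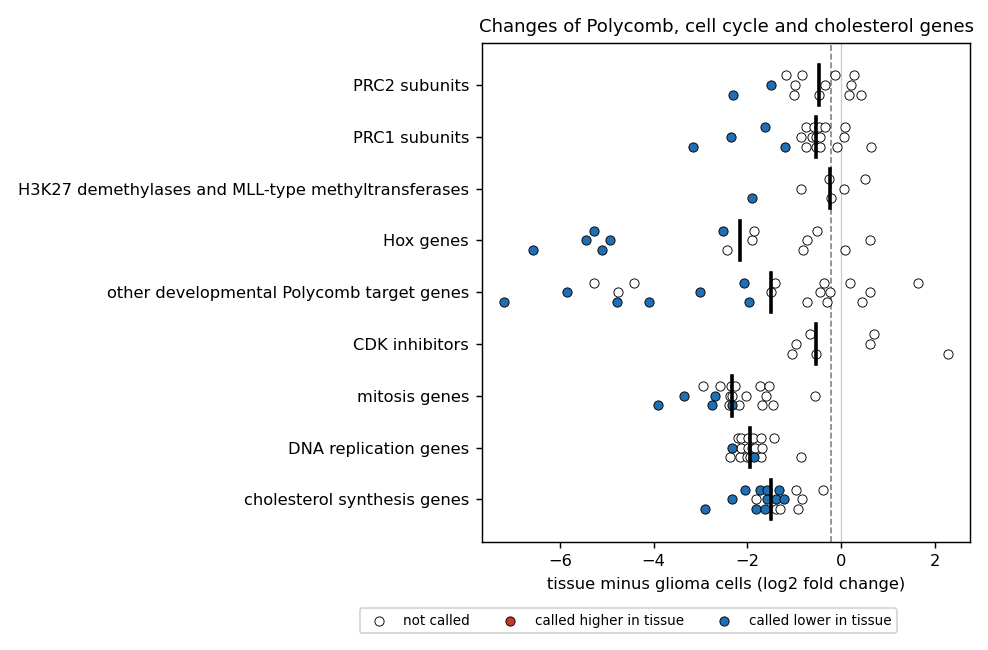
Points are the differences, tissue minus glioma cells on the log2 scale, of the tested members of the Polycomb, developmental, cell cycle and cholesterol synthesis lists, filled where called by limma. Black bars are list medians and the dashed line the median of all tested genes (-0.22). Of the lists drawn, mitosis (-2.32), Hox (-2.16) and replication (-1.94) genes have the lowest medians.

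Cell cycle genes lay lower on the tissue arrays, but the number called depended on arrays of a group that was not compared. For 19 of 20 mitosis genes and 18 of 19 DNA replication genes all tissue arrays lay below both glioma cell arrays, beside 36.4% of all genes. The medians were -2.32 and -1.94. In the fit of all 9 arrays 5 mitosis and 2 replication genes were called lower. In a fit of the 5 compared arrays alone 19 and 17 were, beside 11.3% of all genes, and without either neural stem cell array 17 and 18, beside 12.3%. The 2 neural stem cell arrays had mean mitosis levels of -0.08 and 2.88 and mean replication levels of 0.55 and 3.60, and entered only through the shared spread. Without either glioma cell array no mitosis gene was called, and 2 were with any 1 tissue array or either astrocyte array left out. No replication gene was called with any 1 of these arrays left out. The list means of mitosis were 0.23, 0.49 and 0.12 in the tissue and 2.43 and 2.63 in the glioma cells, and those of replication 1.53, 0.92 and 1.48 against 3.25 and 3.16.

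Promoters of mitosis genes are known for the cell cycle genes homology region, with the core TTTGAA, set beside CCAAT boxes. Promoters of 2 genes called in the mitosis list show that core, in capitals, in the last 120 bases before the start (RefSeq, GRCm38.p6), at chr10:69352913-69353032 (minus strand) and chr7:135716380-135716499 (minus strand).
Cdk1: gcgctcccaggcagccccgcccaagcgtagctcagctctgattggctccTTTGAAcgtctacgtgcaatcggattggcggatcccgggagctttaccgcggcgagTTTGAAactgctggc
Mki67: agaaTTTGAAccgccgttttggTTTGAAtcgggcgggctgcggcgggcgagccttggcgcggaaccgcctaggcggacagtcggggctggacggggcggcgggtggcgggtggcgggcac
On both strands of the windows of 300 bases, TTTGAA occurred in 12 of 17 mitosis genes (70.6%), 3 of 15 replication genes (20.0%) and 18.1% of all windows. CCAAT occurred in 14 of 17 mitosis genes (82.4%), 10 of 15 replication genes and 37.9% of all windows. Cdk1, the kinase that drives entry into mitosis, had levels of -0.86, -1.09 and -1.03 in the tissue and 3.05 and 2.78 in the glioma cells (-3.91, SE 0.81, adjusted p 0.0163), and its 3 probes ran from -4.31 to -0.44. That call ended without either glioma cell array (adjusted p up to 0.0848). Mki67, the proliferation antigen Ki-67, had levels of 2.94, 3.05 and 2.81 against 5.74 and 5.49 (-2.68, SE 0.76, adjusted p 0.0450). The kinase Aurkb was above background on no tissue array and was at least 4.0-fold lower (up to 0.0841 without either glioma cell array). The kinesin Kif20a fell by 2.75 (adjusted p 0.0494) and the spindle protein Nusap1 by 2.33 (adjusted p 0.0487). In replication, the clamp loader subunit Rfc4 fell by 2.33 (adjusted p 0.0450) and the thymidylate synthase Tyms by 1.85 (adjusted p 0.0405). The calls of Mki67, Kif20a, Nusap1, Rfc4 and Tyms ended with any 1 of the 5 arrays or either astrocyte array left out (adjusted p up to 0.175, 0.166, 0.196, 0.161 and 0.156). Rrm2, a subunit of ribonucleotide reductase, stood apart with 7.0, 2.31 and 2.91 in the tissue against 4.74 and 5.12, tissue array 1 being the highest of all 5.

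None of 7 CDK inhibitors, the brakes on the cell cycle, was called. Cdkn2a, a classic Polycomb target, had levels of 3.30, 4.48 and 4.70 in the tissue and 5.24 and 5.18 in the glioma cells (-1.05, adjusted p 0.342). Its neighbour Cdkn2b had levels of 0.38, 1.98 and 2.46 against -0.24 and -1.12 (2.29, adjusted p 0.0904). The median of the list was -0.54, or 0.04 on unscaled values. The median of 17 p53 targets was 0.14. Of these 1 was called higher, beside 8.28% of all genes. It was the death receptor gene Fas (-2.75, -1.25 and -3.20 in the tissue), at least 8.56-fold higher (adjusted p 0.00315), a call that ended with a normexp background (1.34, adjusted p 0.0606). Mdm2 (0.17) and Cdkn1a (0.71), the best known p53 targets, were not called.

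Cholesterol synthesis genes are driven by the factor SREBP2. Of 18, 11 were called lower and none higher, beside 10.6% of all genes, with a median of -1.48. For 16 all tissue arrays lay below both glioma cell arrays, beside 36.4% of all genes. The count of 11 calls depended on single arrays and on scaling. It was 4 without tissue arrays 1 or 3 or glioma cell array 1, 3 without glioma cell array 2, and 4 on unscaled values, where the median was -0.90. Nsdhl, an enzyme late in the pathway, had levels of -0.43, -0.37 and -0.69 against 1.46 and 1.64 (-2.05, SE 0.31, adjusted p 0.00519). Hmgcs1, at its start, fell by 1.81 (adjusted p 0.00905), and no single array ended these 2 calls. Idi1, of isoprenoid synthesis, had levels of 1.97, 2.22 and 1.57 against 3.93 and 4.58 (-2.33, SE 0.40, adjusted p 0.00841). The Idi1 call ended without glioma cell array 2 (0.0530). CCAAT occurred in 11 of 12 windows of the cholesterol synthesis genes (91.7%), 45.6% of windows of genes called lower and 37.9% of all windows. It also occurred in 9 of 12 windows of the MHC class I list, of which no member was called lower. Lipoprotein and cholesterol transport genes were called higher for 2 of 12 and lower for 1, beside 8.28% and 10.6% of all genes. Their median was 2.17. Clu, an apolipoprotein, had levels of 7.05, 7.15 and 6.08 against 0.44 and 1.21 (5.93, adjusted p 0.0136, and 0.0785 without glioma cell array 1). Apoc1 rose by 4.60 and the receptor gene Scarb1 fell by 1.60, calls that ended without several of the 5 arrays (adjusted p up to 0.169 and 0.126). Apoe had levels of 7.89, 8.50 and 7.61 against 1.37 and 4.57 and was not called (5.03, adjusted p 0.0602).

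Of 20 hypoxia and glycolysis genes 1 was called in each direction, with a median of -0.50 that was 0.08 on unscaled values. Pgk1, a glycolytic kinase, had levels of 5.24, 5.30 and 5.18 against 7.30 and 6.62 (-1.72, SE 0.27, adjusted p 0.00558), a call that ended on unscaled values (-1.14, adjusted p 0.0767). The files place its 1 probe at chr3:57906830-57906894 (mm9, minus strand), and whether that probe reads Pgk1 itself was not tested. Adm, a vessel-dilating peptide, rose by 3.52, a call that ended with any 1 of the 5 arrays left out (adjusted p up to 0.148). None of 18 amino acid response genes was called, with a median of -0.05, 0.53 on unscaled values and 0.35 after quantile normalization. None of 14 immediate early genes, which are switched on within minutes by stimulation or handling, was called (median 0.11, and -0.02 under median scaling). Of 11 chaperone genes Hspb1 was called higher (6.42, glioma cell levels of -7.76 and -0.04) and Hspd1 (-1.32) and Hspa5 (-1.31) lower, with a median of -0.32 that was 0.26 on unscaled values. Each of these calls ended without some single arrays (adjusted p up to 0.114, 0.173 and 0.0943).

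In the signalling lists the counts are to be read beside 8.28% of all genes called higher and 10.6% called lower. Of 18 growth factor receptors Pdgfrb, described with the vessel genes, was the 1 call, with a median of 0.49, and Egfr (2.05, adjusted p 0.0897) was not called. Of 14 RAS-MAPK output genes, Spry4, a feedback inhibitor, was lower (-4.92, -4.99 and -3.67 against -1.07 and 0.26, adjusted p 0.0337), and the receptor gene Epha2 was higher by 3.95 (adjusted p 0.0414). Both calls ended with any 1 of the 5 arrays left out (up to 0.158 and 0.208), and the list median was 0.03, or -0.11 under median scaling. Of 18 Notch pathway genes the receptor Notch4 (-0.05, 0.00 and -0.83 against -2.82 and -2.89, adjusted p 0.00333) and the target Heyl (at least 9.15-fold, adjusted p 0.00255) were called higher, and no single array ended these calls. Both genes are known from vessels. On unscaled values 6 Notch genes were called higher. Of 22 Wnt genes 1 was called, the ligand Wnt7a (2.27, adjusted p 0.0322), and its call ended with any 1 tissue array or glioma cell array 1 left out (up to 0.0948). Of 22 TGF-beta and BMP genes 4 were called higher, with a median of 0.74. Bmp6 (at least 7.47-fold), Tgfb1 (4.06), Id1 (3.74) and Bmpr1b (2.93) made up these calls, which ended without some of the 5 arrays (adjusted p up to 0.0518, 0.108, 0.0869 and 0.119).

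Of 22 collagen and basement membrane genes 2 were called higher, both laminin chains, beside 8.28% of all genes called higher. Lama2 (-1.10, -0.54 and -1.84 in the tissue) was at least 20.2-fold higher and Lamb2 (-1.12, 0.04 and -1.32 against -5.0 and -4.44) rose by 3.93 (adjusted p 0.00192). No single array ended these calls, and the list median was 0.35. None of 12 DNA methylation enzymes was called. Dnmt3b, a de novo methyltransferase, came nearest (-1.14, -0.48 and -0.17 against 1.06 and 0.35, adjusted p 0.0504), and the list median was -0.59. Of 13 imprinted genes 1 was called higher, beside the same 8.28% of all genes. It was the noncoding RNA Meg3, with levels of 4.85, 3.93 and 3.83 against -1.75 and 0.70 (4.73, SE 0.84, adjusted p 0.00935), and no single array ended that call.

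The 3 tissue arrays differed from each other in whole groups of genes. Tissue array 2 had the highest mean level of interferon-stimulated genes (3.46, against 2.05 and 1.97), of class I genes (4.05, against 3.06 and 3.35), of microglial genes (4.25, against 3.34 and 3.11) and of ependymal and choroid plexus genes (-0.74, against -2.88 and -2.92). It had the lowest mean of red blood cell genes (-1.31, against 1.88 and 1.44). Tissue array 1 had the highest mean of neuropeptide genes (2.92, against 1.12 and 1.03) and of neuronal genes (2.65, against 1.54 and 1.28), and the lowest mean of Hox genes (-5.08, against -3.48 and -3.03). These are values of single arrays, and the tissue arrays also differed in Xist and Ddx3y as given above.

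Genes that rose had fewer CpG dinucleotides in their promoters than genes that fell, which lay close to the genes not called. RefSeq windows of 300 bases (GRCm38.p6) were matched to 12850 tested genes. Windows were at hand for 1262 of the 1966 genes called higher and for 995 of the 2528 called lower, an uneven coverage. The median window held 10 CpG dinucleotides for those 1262 genes, 19 for those 995 and 20 for 10593 genes not called. The share of windows with an observed over expected CpG ratio above 0.6 was 35.3%, 63.5% and 66.6%, and 36.4% over all 27025 windows. Among the lists, 0 of 11 windows of microglial genes exceeded that ratio, while 17 of 17 windows of mitosis genes did. These shares describe the windows, and the members of a list were not chosen for their promoters.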

How the data were processed

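Total RNA of 9 mouse samples was measured on 1 single-colour Agilent array each. Per the file headers, the deposited scanner files hold the linear intensity of each spot, background-subtracted and detrended within the array by Feature Extraction 10.7.3.1 (3 tissue arrays) or 10.7.1.1 (6 cell arrays). The submitters' processing notes give 10.7.3.1 alone. The authors' deposited table of log2 values matched the log2 processed signal within 0.01 for 99.2% to 100% of probes of an array, with column medians from 5.08 to 6.28, so it is not scaled between arrays. It was used as an alternative.

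Outlier spots (96 to 164 per array) were left out, spots of 1 probe were averaged, and 55666 of 55681 probes were kept. Genes were named through a RefSeq table of GRCm38.p6 by accession (27226 probes), symbol (3584) or synonym (565), and 24291 probes carry the file's own name. Positions of probes are in mm9, as the files give them, and exons or UTRs at them were not looked up. The 75th percentile of each array, 467 to 1016 intensity units, was subtracted on the log2 scale. The brightest tested probe stood for its gene. All 9 arrays entered 1 limma fit (limma 3.58.1, lmFit and eBayes, R 4.3.3), with Benjamini-Hochberg adjustment over all tested genes, and the fit was tested on simulated data. Tables and figures were made in Python 3.11.15 with matplotlib 3.10.9, pandas 2.3.3 and numpy 2.4.6.

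Where no array of a group was well above background, a fold is a bound. It sets the mean of the group with signal against, per array of the other, the higher of the lowest signal well above background and the signal of the gene. Members and gene lists were chosen with earlier results of these data known, and several genes stand in more than 1 list. The text names 4 genes of the model (Pdgfra, Nf1, Trp53 and Ezh2), the top 8 rises and the top 8 falls of characterised genes that both groups measured without overlap, the 5 largest bounds each way, and per list up to 3 called members per direction or, with none called, the 2 with the smallest adjusted p. Other members named were chosen after their values were seen. Some genes that the rule names are not reported here. The alternatives were the background correction, 4 other scalings, 3 other filters, the mean of probes, the 5 compared arrays alone, the replicate number as a block, a trended robust prior, no minimum fold and leaving out each array. The normexp background (offset 50) used the median spot signal, as the tissue files used here lack the mean signal.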

Additional observations from a re-analysis of the deposited data

How the results depend on the processing

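The number of called genes was 4494, and it stayed within 1.5 times of that under every setting run other than a left-out glioma cell array and 2 more. It was 2860 (893 higher) where a gene had to be above background on all 5 arrays, and 2768 (1327 lower) with the replicate number as a block. A normexp background gave 1269 higher genes, and 762 and 1444 genes were lower on unscaled values and under the percentile of probes detected on all arrays. Leaving out single arrays gave 2173 to 4966 calls, 1065 to 2051 higher and 1108 to 2915 lower. Otx2, lower in the main setting, had a difference of 1.35 with a normexp background and 1.49 with the mean of its probes, and the cause was not tested. Of the 111 genes named by rule and called, 78 were also called with the replicate block, 88 with normexp, 96 on unscaled values and 61 without glioma cell array 1. The shared replicate numbers do not mark a stated pairing: the deviations of same-numbered arrays correlated at -0.003 and -0.171, over 2 pairs. Beside the calls described as ending above, those of Ring1, Kmt2b, Kif20a, Rfc4, Tyms, Scarb1, Hspd1, Hspa5 and Nkg7 ended on unscaled values, and those of Kmt2b, Kif20a, Rfc4, Hspd1, Hspa5, Hspb1, Csf3r and Epha2 after quantile normalization. With a normexp background the calls of Gtse1, Foxd1, Foxa1, Hoxc4, Aurkb, Kif20a, Kmt2b, Pax6, Cd3e, Pdgfrb, Acta2, Myh11, Kl, Epha2, H2-Aa, Kcnn2, Adm, Bmp6 and Tgfb1 ended. In the fit of the 5 compared arrays alone those of Slxl1, Prom1, Pax6, Cd3e, Kmt2b, Hoxc4, H2-Aa, Hspb1 and Wnt7a ended. Genes near background have only bounds, and with 5 arrays many changes of moderate size could not be called.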

Other observations

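The 8 spike-in controls that were above background on all 9 arrays, added RNAs that do not come from the mouse, were all higher on the tissue arrays relative to the 75th percentile. Their differences, tissue minus glioma cells, ran from 0.88 to 2.29 on the log2 scale, with a median of 2.05. Their mean level was 4.85, 3.97 and 3.59 in the tissue and 2.19 and 2.32 in the glioma cells. It was 3.09 and 2.83 for the astrocytes and 2.60 and 3.00 for the neural stem cells. The amount of spike-in mix per RNA is not given in the sources used here.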
